A study of Gallus gallus with 24 samples.

Results

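Gene expression was compared between the right ventricle of chick embryos after left atrial ligation and the normal right ventricle of the same age, embryonic day 8 (E8). The comparison used 4 of the 24 arrays of the series, which were the 2 technical arrays of the ligated right ventricle pool and the 2 technical arrays of the normal right ventricle pool. All 38439 probe sets other than the 96 array controls were eligible, and 20335 of them, representing 9575 named genes and some unnamed transcripts, passed a filter on low signal. The series as a whole held 12 pools of ventricle tissue from normal embryos between E4 and E10 and from embryos after 1 of 2 operations on the heart.

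The ligated embryos had the left atrial appendage partly tied off in ovo on day 4, and both ventricles were collected separately on day 8. The normal embryos were not described as operated, and no pool was labelled as sham-operated, so an effect of ligation cannot be told apart from an effect of opening the egg and handling the heart. No strain, genotype or sex of the embryos was given in the labels. Each pool combined tissue of 6 to 12 specimens into 1 RNA sample, which was labelled once and hybridised to 2 arrays. There was therefore 1 pool per condition, no replicate check on any difference, and each SD below is that of 2 technical arrays and leaves out the variation between embryos. The ligated left and right pools may come from the same hearts, which the labels do not say.

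In the embryonic heart, blood from the left atrium fills the left ventricle and blood from the right atrium fills the right ventricle. Narrowing the left atrium sends more of the inflow to the right side, and left atrial ligation in the chick is known as a model in which the left ventricle stays small while the right ventricle carries a larger volume. The ventricular wall at this age is made mainly of cardiac muscle, with endocardium inside, epicardium outside, and fibroblasts, vessel cells and blood cells between them.

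Markers of ventricular muscle were high, as the tissue label states, but they are shared by both ventricles and do not check the side or the operation. All 7 markers of ventricular muscle that were examined, each at its brightest probe set, lay between 13.89 and 15.96 on the log2 scale in the ligated pool, and none differed from the normal pool by more than 0.25. MYH15, the ventricular myosin heavy chain of the chick, gave 15.95 and 15.97 on the ligated arrays and 15.95 and 15.99 on the normal arrays. MYL2, a ventricular myosin light chain, differed by -0.01, and the ventricle-specific transcription factor IRX4 differed by -0.25 at its brighter probe set and by 0.05 at the other. These signals lie close to the top of the measured range, 16.09, where a difference may not show in full. The median over all probe sets was 4.15 and 4.13 on the ligated arrays and 4.11 on both normal arrays, and the SD between duplicate arrays was 0.152 in the ligated and 0.121 in the normal pool. The housekeeping controls for GAPDH and EF1A differed by at most 0.07 in size and the 3 for actin by -0.06, -0.10 and -0.20, while the 9 bacterial and phage hybridisation controls were higher on the ligated arrays by 0.12 to 0.70. Their part in the results below was not tested.

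A probe set was counted as different when the means of the 2 pools differed at least 2-fold, which is 1 on the log2 scale, and the arrays of one pool did not overlap those of the other. By this rule 848 of 20335 probe sets (4.17%) differed between the ligated and the normal right ventricle. Of these, 402 (1.98%) were higher and 446 (2.19%) were lower after ligation. Most of the transcriptome differed little, with 87.7% of probe sets within 1.5-fold and an SD of the difference of 0.445. At least 4-fold differences were found for 61 probe sets that were higher and 37 that were lower, and at least 8-fold differences for 16 and 5.

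The differences lay mostly among weakly expressed transcripts. Probe sets that were higher after ligation had a median level of 5.65 in the normal pool, and those that were lower had a median of 7.39, against 8.80 over all kept probe sets. The share counted was 8.75% among probe sets with a mean level under 6, 7.04% between 6 and 8, 2.85% between 8 and 10, 0.848% between 10 and 12, and 0.605% above 12. In 108 of the 402 higher probe sets the normal pool lay below the filter level of 4.095, and in 74 of the 446 lower ones the ligated pool did. Of the higher ones 17 passed the filter only through the ligated pool, and of the lower ones 6 only through the control, so all of these had to differ. A difference between such levels depends on where the processing sets its floor. The plot of the ligated against the normal pool shows the counted probe sets fanning out at the low end and the diagonal closing in at the top.

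**Figure D1:**
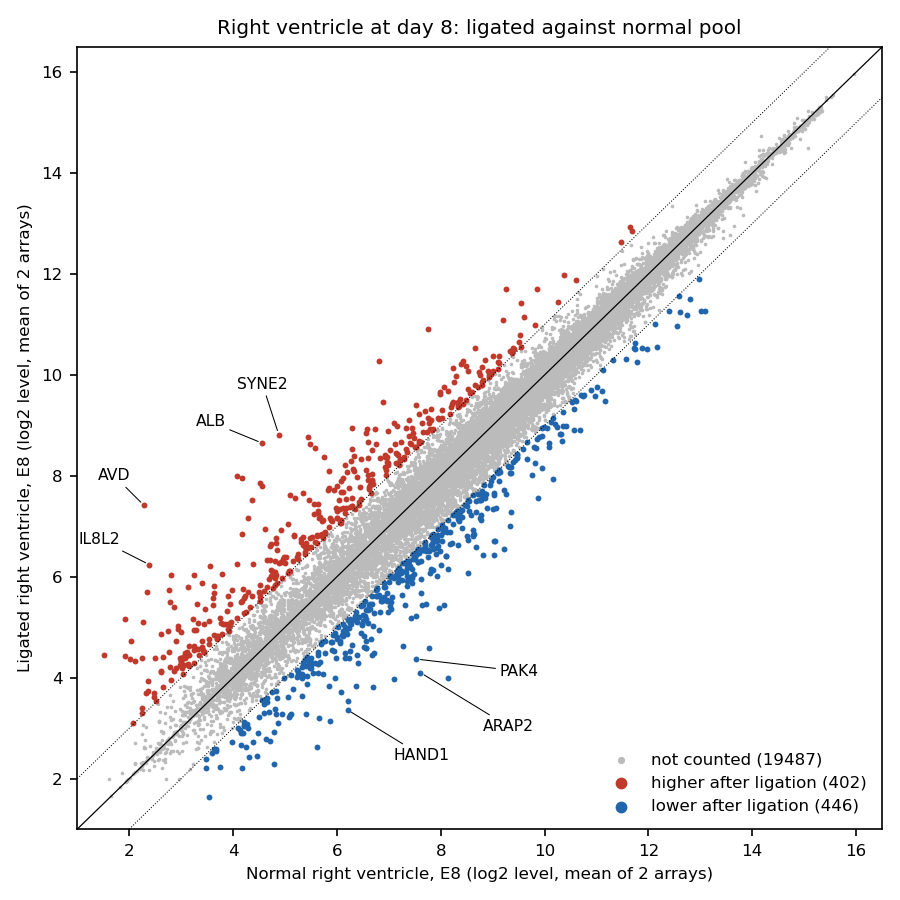
Level of each of the 20335 kept probe sets in the normal (x axis) and the ligated (y axis) right ventricle at E8, as the mean log2 value of 2 technical arrays; the solid line marks equal levels and the dotted lines 2-fold differences. The 402 higher probe sets are red and the 446 lower ones blue, and most of both lie below a level of 10.

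The widest measured rise was that of avidin (AVD, probe set Gga.729.1.S1_at), the biotin-binding protein of egg white, which chick tissues are also known to make after injury or infection. Its signal was 7.54 and 7.30 on the ligated arrays and 2.28 on each of the normal arrays, so that the size of the rise, 5.14, depends on the floor. The ligated left ventricle showed no such level, with 2.68 and 3.0 against 2.31 and 2.29 in its normal pool. Avidin lay between 2.27 and 2.32 in all 9 normal pools of the series, and the only other pool with a high level was the one collected on day 5 after conotruncal banding, at 8.01. The ligated right ventricle thus did not overlap any normal pool.

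IL8L2, a chick chemokine related to mammalian interleukin 8, was 6.69 and 5.78 on the ligated arrays and 2.39 on both normal arrays, which was again the floor. In the left ventricle it lay at 2.40 and 2.38 after ligation and at 2.44 and 2.41 in the normal pool. CCL4, a chemokine that attracts monocytes and lymphocytes, was 4.47 and 4.40 against 1.91 and 1.91 in the right ventricle and did not leave 1.90 to 1.93 in either left pool. Both chemokines were thus at the floor of the measurement in every E8 pool other than the ligated right ventricle. XCL1, a chemokine made by T cells and natural killer cells in mammals, was also higher, by 2.05, and was higher by 1.48 in the left ventricle. Its ligated level, 5.68, lay below all 8 normal pools other than the control, at 5.75 to 7.92, and the control was the lowest at 3.63. Of the 11 kept probe sets for chemokines, a family chosen after these values were seen, 3 were higher, against 1.98% of all, and none was lower. IL8L2 and CCL4 passed the filter on low signal only through the ligated right pool, so both had to differ and the count is no support. Of the 14 chemokine genes on the array 8 were kept. The 4 probe sets of CXCL12 were within 1.5-fold.

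SERPINB2, an inhibitor of plasminogen activators, was higher at all 3 of its kept probe sets, by 2.98, 2.54 and 2.24. At Gga.10034.1.S1_at it gave 5.86 and 5.62 on the ligated arrays and 2.88 and 2.64 on the normal arrays. It was higher in the left ventricle too, by 2.39, 1.66 and 2.17 at the same probe sets. SERPINB10B, another serine protease inhibitor of the same family, was higher by 2.68 in the right and 1.75 in the left ventricle. Thus 4 of 6 kept SERPINB probe sets were counted higher in the right ventricle, against 1.98% of all, and 3 of the 4 belong to SERPINB2. This family too was chosen after its values were seen. The 2 probe sets that were not counted belong to SERPINB6 and lay above a level of 10.

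A model was fitted over all 12 pools. Its spread came only from the normal pools of E6, E8 and E10, and a condition with 1 pool was given that spread. This limma fit called 7 probe sets for ligation in the right ventricle (0.0344% of 20335, Benjamini-Hochberg adjusted p under 0.05), and 1227 had an unadjusted p under 0.05. All 7 were higher after ligation. They were AVD (5.13 ± 0.13, SE, adjusted p = 0.0032), IL8L2 (3.84 ± 0.13, adjusted p = 0.0076), CCL4 (2.52 ± 0.13, adjusted p = 0.019), SERPINB2 at 2 probe sets (2.95 ± 0.15, adjusted p = 0.019, and 2.20 ± 0.14, adjusted p = 0.047), and 2 unnamed probe sets. The unnamed Gga.11496.1.S1_at gave 6.22 and 5.87 on the ligated against 2.90 and 2.69 on the normal arrays (3.34 ± 0.16, limma adjusted p = 0.019). The unnamed GgaAffx.26780.1.S1_s_at gave 5.28 and 5.04 against 1.92 and 1.92 (3.23 ± 0.13, limma adjusted p = 0.011), and it was higher still in the ligated left ventricle, at 6.34 and 6.71. The fitted values differ slightly from the pool differences because the model's control level also draws on the normal left pool. All 7 lay near the floor of the measurement in the normal pools, where the spread is small, so the SE does not contain the variation of a pool above the floor. IL8L2, CCL4 and Gga.11496.1.S1_at (3 of the 7) passed the filter only through the ligated right pool and so had to differ. The rest of the 7 lay at or below 3.99 in every normal pool, under the filter level. They passed only through pools of operated embryos, the ligated right pool among them. The p-values of all 7 are therefore a description. With no filter on low values the limma count was 10 and included all 7. The limma count fell to 0 without the E6 pools (2742 at an unadjusted p under 0.05) and to 0 without the E10 pools (971). Those fits had 1 and 2 residual degrees of freedom, against 3 in the main fit, so the counts are not like for like.

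Genes were ranked by size with each represented by its brightest counted probe set, so wider rises at dimmer probe sets, such as those of titin and SERPINB2, do not enter the ranking. Among the other genes with the widest rises, albumin (ALB), the main plasma protein made by the liver, was 8.78 and 8.52 on the ligated and 4.79 and 4.34 on the normal arrays. Its level in normal pools ran from 3.70 to 9.07, highest in the pool of both ventricles on day 6, so the ligated right ventricle lay inside the normal range. SYNE2, which encodes nesprin-2, a protein that ties the nuclear envelope to the cytoskeleton, gave 8.60 and 9.03 against 4.84 and 4.91, and a second, dimmer probe set was higher by 2.03. FBXO3, a subunit of a ubiquitin ligase, gave 7.83 and 8.15 against 3.77 and 4.38. JMJD1C, of a histone demethylase family, gave 8.72 and 8.84 against 4.79 and 6.09, where the 2 normal arrays stood further apart than the ligated ones. The groups did not overlap for any of these genes, which the counting rule requires. All of these genes were also higher in the ligated left ventricle.

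The other rises among the 15 genes ranked highest in this way ran from 3.78 to 2.66 on the log2 scale. GLUD2, glutamate dehydrogenase, was higher by 3.17, BOD1L1, which takes part in genome stability, by 2.98, and AKAP9, which anchors protein kinase A at the centrosome and Golgi apparatus, by 2.80. NDUFA12, a subunit of respiratory complex I, was higher by 2.73, and SLC35B2, which carries the sulfate donor for proteoglycan synthesis into the Golgi apparatus, by 2.66. The genes LY6CLEL, LOC418543 and LOC424199 were higher by 3.78, 3.16 and 2.94. GLUD2 at 7.53 and LOC418543 at 10.91 lay inside their normal ranges, 4.33 to 7.65 and 2.50 to 11.65. Apart from these and ALB, the 15 genes lay above every normal pool, some only just. The normal right E6 pool stood at 8.53 for BOD1L1 and 5.96 for AKAP9, beside 8.55 and 6.04 in the ligated pool. For SYNE2 and JMJD1C it stood at 8.22 and 7.92, beside 8.82 and 8.78.

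**Figure D2:**
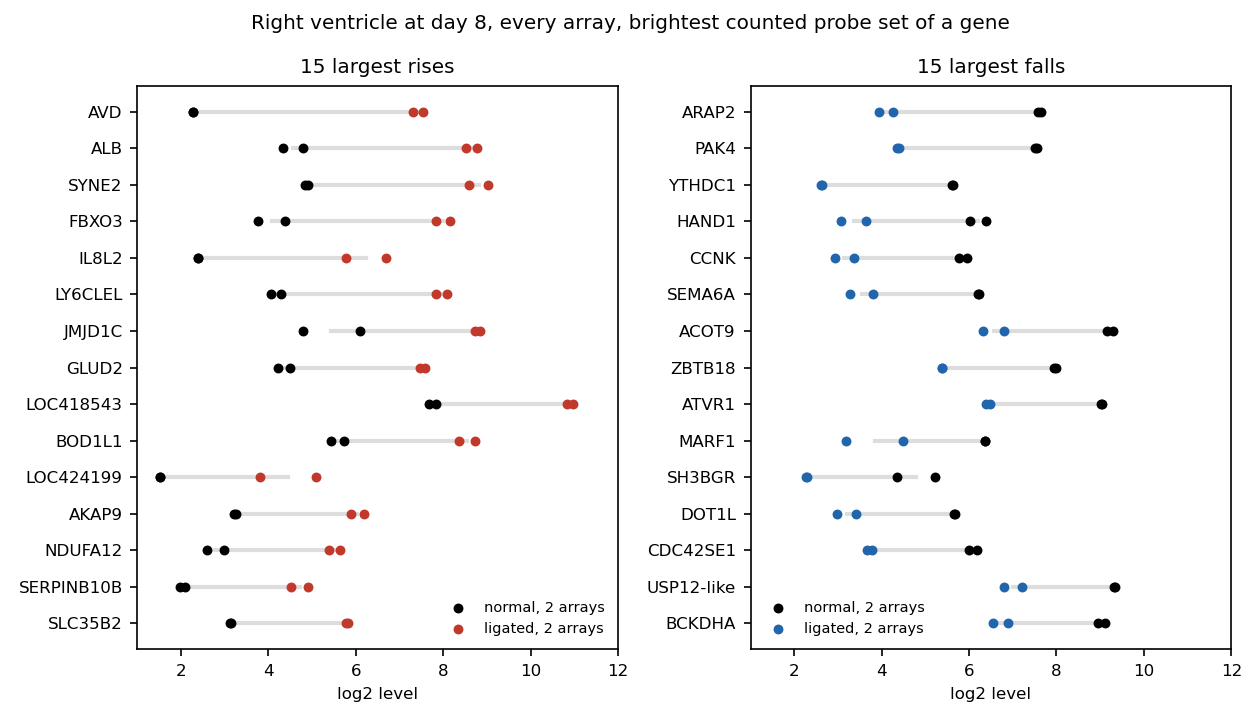
Log2 level on every array of the right ventricle at E8 for the 15 genes with the largest rises (left) and the 15 with the largest falls (right) when each gene is taken at its brightest counted probe set; black points are the 2 technical arrays of the normal pool, coloured points the 2 of the ligated pool, and grey bars join the means. The arrays of the 2 pools do not overlap in any row, as the counting rule requires, and no level in either panel exceeds 11.

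Among named genes, ranked in the same way, the widest falls were those of ARAP2, which regulates small GTPases of the Arf family, and of PAK4, a protein kinase that acts downstream of the GTPase Cdc42. One probe set without a gene name fell further. ARAP2 gave 4.25 and 3.94 on the ligated and 7.58 and 7.64 on the normal arrays, an 11.4-fold difference. PAK4 gave 4.39 and 4.35 against 7.55 and 7.52, an 8.96-fold difference. A second probe set was lower for both genes, by 1.53 for ARAP2 and by 2.12 for PAK4. The normal pools of the whole series lay between 6.52 and 8.65 for ARAP2 and between 5.83 and 9.79 for PAK4, so the ligated right ventricle lay below all of them. Both fell in the ligated left ventricle as well, by 3.58 and 3.53.

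HAND1, a transcription factor that in the mouse marks the left ventricle and the outer curvature of the heart, gave 3.64 and 3.08 on the ligated and 6.03 and 6.38 on the normal arrays. All 9 normal pools lay between 6.21 and 8.31, and the ligated left ventricle, at 5.03 and 4.72, was below them too. SEMA6A, a transmembrane guidance protein, gave 3.27 and 3.81 against 6.22 and 6.21, and a second probe set was lower by 1.83. BCKDHA, the catalytic subunit that starts the breakdown of branched-chain keto acids, gave 6.88 and 6.54 against 9.10 and 8.96. ZBTB18, a zinc-finger repressor of transcription, gave 5.38 and 5.37 against 7.95 and 8.00. In each of these genes the ligated pool lay below all 9 normal pools.

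YTHDC1, which binds methylated adenosine in nuclear RNA, gave 2.62 and 2.64 against 5.60 and 5.63, but normal pools at other ages were as low as 2.57. SH3BGR, a protein of heart and skeletal muscle, gave 2.26 and 2.29 against 4.34 and 5.22, with normal pools between 2.23 and 5.34. For these 2 genes the ligated level lay inside the range of normal ventricles. CCNK, the cyclin partner of a kinase that drives transcript elongation, was lower by 2.71, ACOT9, a mitochondrial acyl-CoA thioesterase, by 2.66, and DOT1L, a histone H3 methyltransferase, by 2.46. The remaining genes among the 15 falls so ranked, ATVR1, MARF1, CDC42SE1 and USP12-like, were lower by 2.59, 2.52, 2.36 and 2.33.

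Many of these genes have further probe sets, which measure other stretches of the transcript, and they often did not move. Of the 228 higher probe sets whose gene had another kept probe set, 86 (37.7%) had another one counted the same way, and among the 243 lower ones 90 (37.0%) did. Where a brighter probe set existed, its difference had a median of 0.08 in the direction of the counted one for 185 higher probe sets and of 0.40 for 188 lower ones. NDUFA12 is an example, since its dim probe set was higher by 2.73 while the bright one gave means of 14.17 and 14.12. The brighter probe sets of JMJD1C, BOD1L1, AKAP9, SLC35B2, CCNK, DOT1L, YTHDC1, SH3BGR and ATVR1 differed by at most 0.43 in size at the brightest 1 or 2 of each gene. The counts at these genes refer to single probe sets. The 4 genes with probe sets counted in both directions included COL1A2, a chain of type I collagen, with 2 of 6 kept probe sets higher, 1 lower, and the brightest, near 14, different by 0.08.

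Titin (TTN), the giant elastic protein that spans the sarcomere from Z disc to M line and is expressed in many spliced forms, showed the same division on a larger scale. Of its 19 probe sets on the array 11 were kept. Of these, 7 were higher after ligation, by 1.07 to 3.47, against 1.98% of all kept probe sets, and none was lower. The widest rise was at Gga.19481.6.S1_at, which gave 10.22 and 10.34 on the ligated and 6.87 and 6.75 on the normal arrays. The ligated arrays stood far apart at Gga.19481.5.S1_a_at, with 6.78 and 4.61 against 4.23 and 4.35. The same held at Gga.19481.7.S1_at, with 5.02 and 3.38 against 3.03 and 3.01. The 2 brightest titin probe sets, near 14.6, differed by -0.15 and -0.08. In the left ventricle 5 of the 11 probe sets were higher, and the 2 brightest differed by -0.21 and -0.14. Of the 11, 8 were higher in the normal right ventricle on day 6 than on day 10, against 54.4% of all kept probe sets. There the probe set of the widest rise, Gga.19481.6.S1_at, stood at 9.18 on day 6 and at 6.42 on day 10. The ligated pool at day 8 was thus above the day 6 level at this probe set, and further above the normal pools of days 8 and 10. What part of the transcript each probe set measures is not given in the sources used here.

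**Figure D3:**
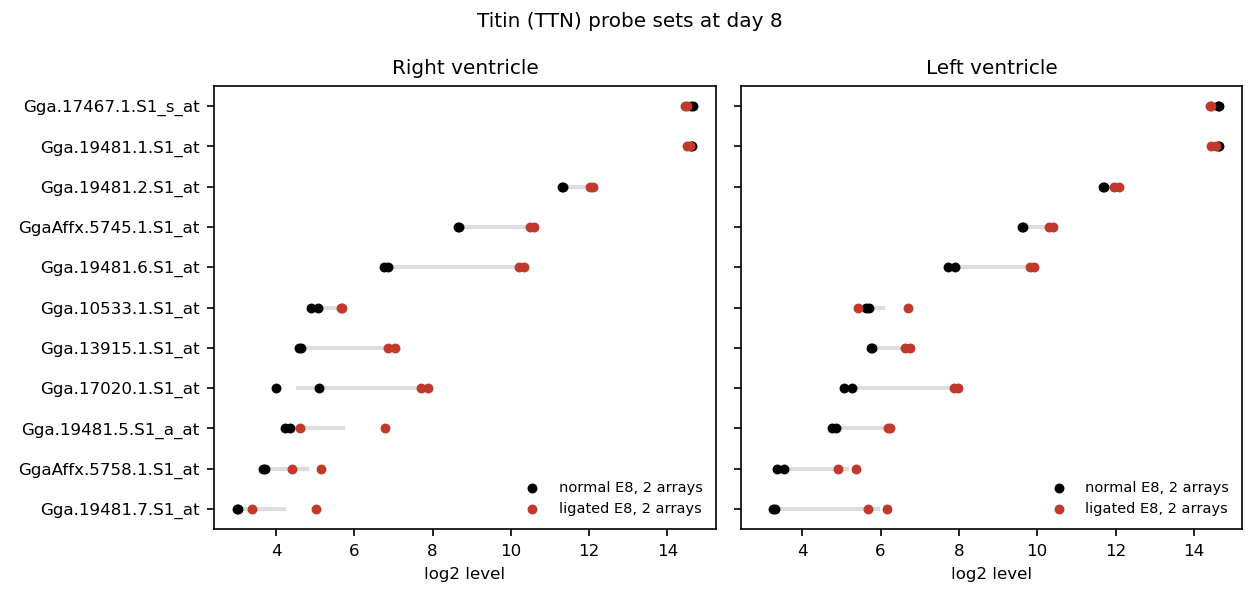
Log2 level on every array for the 11 kept titin probe sets, in the right (left panel) and the left ventricle (right panel) at E8; black points are the 2 arrays of the normal pool, red points the 2 of the ligated pool, and grey bars join the means. In the right ventricle 7 dim to medium probe sets lie higher after ligation by 1.07 to 3.47, while the 2 brightest differ by -0.15 and -0.08.

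Gene groups were described with 1 probe set per gene, the brightest kept one, so that dim extra probe sets did not decide the count. On this basis 137 of 9575 genes (1.43%) were higher and 149 (1.56%) lower after ligation, with a median difference of 0.016. In 29 lists of genes relevant to the heart, which were chosen with earlier results of these data known, 31 of 588 distinct genes (5.27%) were counted against 2.99% of all genes. Each list count below stands beside that 2.99%, and a count near it, or none in a short list, is no result about the list. Because the tissue was measured in bulk, fewer cells of a type and less RNA per cell cannot be told apart in any of these lists.

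Of 24 transcription factors of the cardiac chambers, 2 were higher and 3 lower, and the median was -0.31 against 0.016 over all genes. Besides HAND1, TBX20, a T-box factor needed for chamber growth, gave 10.32 and 10.29 on the ligated and 11.33 and 11.30 on the normal arrays, a difference of -1.01, and its other probe set differed by -0.92. ZFPM2, also called FOG2, a partner of the GATA factors, was lower at both probe sets, by 1.11 and 1.28. Among all normal pools, ZFPM2 was never below 9.04 at the brighter probe set, and the ligated arrays gave 8.84 and 9.05, a mean below all of them. HEY2, a Notch target of ventricular muscle, was on the array but below the filter.

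TBX5 and HOPX were the chamber factors that were higher. TBX5, which in the chick is stronger in the atria and the left ventricle, gave 6.92 and 6.75 against 5.64 and 5.77, and its second probe set was higher by 1.10. Its normal range over all ages, 4.56 to 8.03, included the ligated level. HOPX, a homeodomain protein that tempers the activity of serum response factor, gave 10.39 and 10.48 against 9.37 and 9.36. Its 9 normal pools lay between 9.22 and 9.80, below the ligated pool. None of TBX20, ZFPM2, HOPX and the brighter TBX5 probe set reached 2-fold in the left ventricle, where they differed by -0.45, -0.54, 0.43 and 0.82. The second TBX5 probe set was counted higher in the left ventricle too, by 1.02 beside 1.10 in the right. Limma's term for the difference between the ventricles did not call any of these genes.

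Signalling genes had a median difference of -0.09 in the first list below and 0.08 in the second, against 0.016 over all genes. Their counts stand beside 2.99% of all genes counted either way. In the list of Notch, neuregulin and bone morphogenetic protein (BMP) signalling, 2 of 27 genes were lower and none was higher. These were BMP4, a growth factor of the heart's outflow and cushions, with 6.77 and 6.03 against 7.80 and 7.73, and ID3, an inhibitor of transcription factors that BMP signals induce, with 6.90 and 6.77 against 7.87 and 8.15. BMP10, which sustains growth of the trabeculae in the mouse, differed by 0.88 and NRG1, the endocardial neuregulin, by 0.76, both under the 2-fold rule. Of 36 genes of transforming growth factor beta (TGF-beta), fibroblast growth factor (FGF), WNT and insulin-like growth factor (IGF) signalling, FZD7 was higher and FGF12 lower. FZD7, a WNT receptor, was higher by 1.29 and 2.18 at its 2 probe sets, and FGF12, a member of the FGF family that stays inside the cell and modulates sodium channels, gave 7.99 and 8.05 against 9.70 and 9.81, below all 9 normal pools.

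In the extracellular matrix list 5 of 61 genes were higher and 2 lower, with a median of 0.02. Elastin (ELN) gave 12.02 and 11.95 on the ligated and 10.33 and 10.43 on the normal arrays, above all 9 normal pools, whose highest was 10.52. FBLN5, which helps assemble elastic fibres, was higher by 1.09 and 1.38 at its 2 probe sets and also lay above all normal pools. CCN3, a matricellular protein, gave 9.48 and 9.45 against 6.98 and 6.79, and SPP1, osteopontin, gave 6.49 and 7.04 against 4.13 and 5.52, where the normal arrays stood far apart. HAPLN1, a link protein that binds hyaluronan in the cardiac jelly, was higher by 1.07. These 4 other than HAPLN1 were also higher in the left ventricle, by 1.72 (ELN), 1.77 (FBLN5), 4.06 (CCN3) and 1.96 (SPP1).

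MMP15, a membrane-bound matrix metalloproteinase, and OGN, osteoglycin, were the matrix genes that were lower. MMP15 gave 10.54 and 10.52 against 11.83 and 11.92, its second probe set was lower by 1.26, and both fell in the left ventricle as well. OGN gave 9.43 and 9.21 against 10.56 and 10.58. The abundant fibrous components did not reach 2-fold: COL1A1 differed by -0.59 and periostin (POSTN) by 0.08 at its brighter probe set. Over all 74 kept collagen probe sets, 4 were higher and 3 lower, against 1.98% and 2.19% of all kept probe sets.

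The sarcomere list had a median of -0.01 at the brightest probe set of each gene, with 1 gene higher and 1 lower. Over all genes 2.99% were counted either way. Only 0.605% of probe sets with a mean level above 12 were counted, and near the top of the range a difference may not show in full. Of 33 sarcomere genes, MYBPC1, the slow skeletal myosin-binding protein C, was higher by 1.58 and, at another probe set, by 1.91, and LMOD2, which lengthens the thin filament, gave 10.52 and 10.50 against 12.00 and 11.94. LMOD2 lay below all 9 normal pools, whose lowest was 11.17. Over all 71 kept probe sets of the list, 9 were higher and 1 was lower, against 1.98% and 2.19% of all kept probe sets. Of the 9, 7 were those of titin. Of 17 calcium handling genes, S100A1, a calcium-binding regulator of the sarcoplasmic calcium pump, was lower by 1.42, while the pump inhibitor PLN differed by 0.02. None of 8 natriuretic peptide and fetal load-response genes was counted, among them NPPA, atrial natriuretic peptide, which gave 15.06 and 15.05 against 14.97 and 14.94 near the top of the scale.

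None of 54 cell cycle genes was counted at the brightest probe set, and their median was 0.02. At further probe sets, CENPF, a kinetochore protein, was higher by 1.70 and 1.11, while its brightest differed by 0.00. The counts for energy metabolism stand beside 2.99% of all genes. Of 50 genes of oxidative phosphorylation and the citric acid cycle, OGDH, a subunit of 2-oxoglutarate dehydrogenase, was lower by 1.18, and it fell by 1.65 in the left ventricle. Of 21 glycolytic genes, ENO2, an enolase, was higher by 1.16. None of 22 genes of fatty acid use was counted. In the list of 21 hypoxia response genes P4HA2, a collagen prolyl hydroxylase, and CA4, a carbonic anhydrase, were higher, by 1.15 and 1.08, and VEGFA differed by 0.81. None of 56 ribosomal protein genes, 25 stress and immediate early genes or 12 conduction and gap junction genes was counted. Beside 2.99% of all genes, such counts say little about lists of this size.

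Of 13 flow-responsive endothelial genes, PIEZO1, a channel opened by stretch of the membrane, was higher, with 6.32 and 5.95 on the ligated and 4.68 and 4.79 on the normal arrays, above its highest normal pool of 5.77. It differed by 0.30 in the left ventricle. KLF2, the best known transcription factor induced by shear stress, differed by 0.08. PTGS2, an inducible prostaglandin synthase, differed by 0.99, just under the rule.

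Markers of other cell types were examined because a dissected ventricle can carry neighbouring cells. Of 19 liver markers 18 were on the array and 8 were kept, and ALB, FGG and FGB were higher, with a median of 0.79 over the 8. The summed level of these 8, as the log2 of their summed linear signals, was 12.86 and 12.82 on the ligated and 12.27 and 12.29 on the normal arrays. The 9 normal pools ran from 12.04 to 13.14, so the ligated level lay inside their range. FGG and FGB, chains of fibrinogen, reached 4.34 and 4.04, and 5.12 and 4.53, and stayed near the floor in the normal pool, while the defining markers AFP, AHSG and HNF4A were below the filter. In the ligated left ventricle the same list had a median of 3.64 and 7 of 8 markers were higher. The part of liver cells or of plasma protein transcripts in the rise of ALB was not tested.

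Of 15 blood cell markers CA2, the carbonic anhydrase of red cells, was higher by 1.86, and 13 of the 15 differences were above 0. Their summed levels were 17.51 and 17.56 against 17.30 and 17.34, inside the range of the 9 normal pools, 16.71 to 17.71. Of 14 leukocyte markers C1QC, a complement subunit made by macrophages, was higher by 1.40, and the summed levels were 12.85 and 12.83 against 12.79 and 12.80. The general leukocyte marker PTPRC and the macrophage markers MARCO and CYBB were below the filter, and SPI1 differed by 0.20. The part of leukocytes in the rise of IL8L2 and CCL4 was not tested.

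None of 25 endothelial markers and none of 9 epicardial markers was counted. The epicardial list had summed levels of 14.17 and 14.14 on the ligated and 13.84 and 13.89 on the normal arrays. The ligated level lay inside the range of the 9 normal pools, 13.7 to 14.6. The list's keratin KRT7 differed by 0.95, while the epicardial transcription factors TCF21 and TBX18 differed by -0.01 and -0.39. Of 11 smooth muscle markers, MYH11, the smooth muscle myosin heavy chain, was higher by 1.87, whereas PDGFRB, a receptor of pericytes, differed by -0.93 and the list's summed levels were 14.56 and 14.54 against 14.51 and 14.56. Of 16 fibroblast and cushion markers OGN and TBX20 were lower. Of 8 nerve markers STMN2 was higher by 1.71, and of 12 atrial markers TBX5 was higher, with summed levels of 16.20 and 16.20 against 16.17 and 16.16. None of 4 skeletal muscle and 4 lung and foregut markers was counted. HINTW, a gene of the female-specific W chromosome, gave 14.41 and 14.50 against 14.09 and 14.17 at its brighter probe set and differed by -0.11 at the other. None of 13 Z-linked genes was counted, with a median of -0.08. The part of these cells, and of the mix of sexes in a pool, was not tested.

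The left ventricle of ligated embryos provided separate pools in which the right ventricle's differences could be read again. There, 853 probe sets (4.19%) were counted by the same rule, 516 (2.54%) higher and 337 (1.66%) lower. Of the 402 probe sets higher in the right ventricle, 162 were counted higher in the left, which is 40.3% of the right list and 31.4% of the left list. Of the 446 lower in the right, 201 were counted lower in the left, which is 45.1% of the right and 59.6% of the left list. The median left difference was 0.82 for the higher and -0.92 for the lower probe sets, against 0.00 over all kept ones. The share counted in the left grew with the size of the difference in the right, from 34.9% of the 2- to 4-fold rises and 66.7% of the 4- to 8-fold rises to 81.2% of the 16 largest. For falls the shares were 40.8%, 90.6% and all of the 5 largest. Only 7 probe sets were counted in opposite directions.

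**Figure D4:**
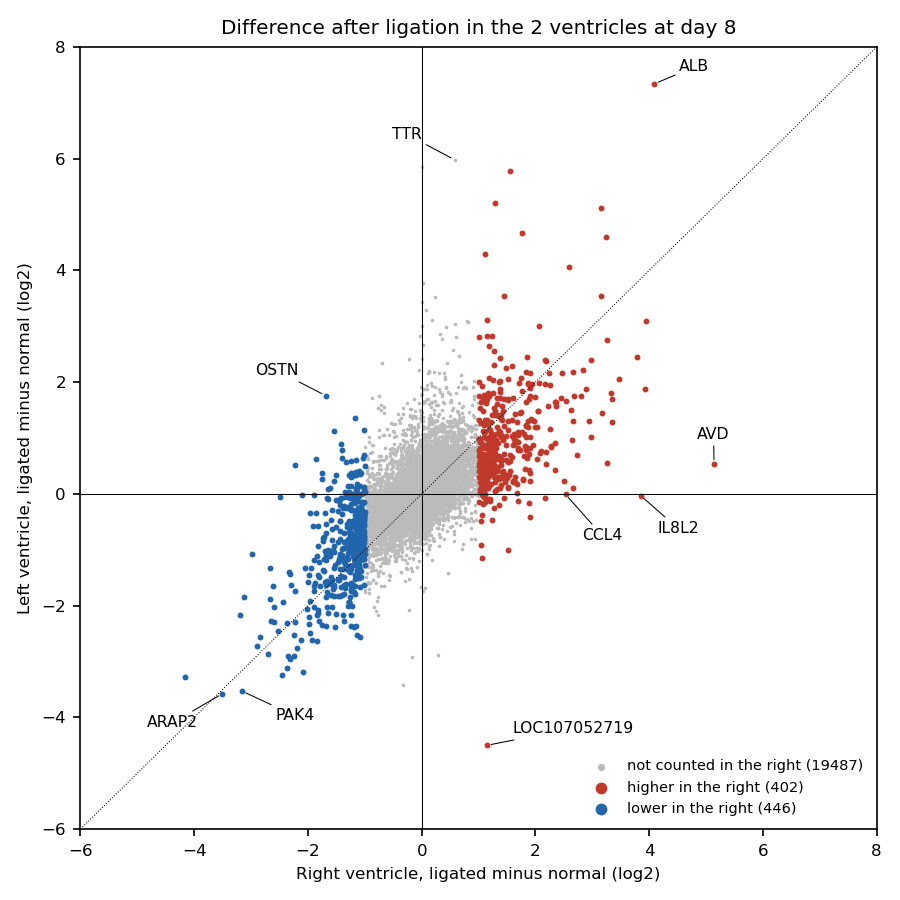
Ligated minus normal log2 difference in the right (x axis) and in the left ventricle (y axis) at E8 for the 20335 kept probe sets, each from 1 pool per condition; the dotted line marks equal differences. Probe sets counted in the right ventricle (402 red, 446 blue) fall mostly in the quadrants of the same direction, whereas AVD, IL8L2 and CCL4 lie along the x axis.

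The difference between the ventricles was tested with limma's term for side by ligation, which called 2 probe sets (0.00984% of 20335), with 281 at an unadjusted p under 0.05. They were AVD, with a response larger in the right by 4.59 ± 0.17 (SE, adjusted p = 0.019), and IL8L2, larger in the right by 3.86 ± 0.17 (limma adjusted p = 0.024), which had passed the filter only through the ligated right pool. AVD had passed it only through that pool and the banded E5 pool. The count of 2 fell to 0 without the E6 pools (874 at an unadjusted p under 0.05) and to 0 without the E10 pools (356). Those fits again had 1 and 2 residual degrees of freedom, against 3. CCL4 differed by 2.53 ± 0.17 in the same direction but did not pass the limma threshold, with an adjusted p of 0.12. SLC35B2 at its dim probe set GgaAffx.6400.2.S1_s_at responded more in the right by 2.56 in the pool differences and was not called by limma. Its brighter probe set differed by 0.02 in the right and 0.07 in the left ventricle. The opposite extreme held transcripts that differed more in the left. AvBD10, an avian beta-defensin, lay between 1.65 and 1.67 on all 4 right arrays and at 7.37 and 7.67 in the ligated left pool. TTR and FETUB, plasma proteins made by the liver, differed by 0.58 and 1.56 in the right and by 5.98 and 5.78 in the left, and FGG by 1.29 and 5.21. PRPS2, an enzyme of nucleotide synthesis, differed by 0.02 in the right and 3.78 in the left. AvBD10, TTR, FETUB, FGG and PRPS2 all reached 7.80 or more in some normal pool, and the limma term called none of them.

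Normal development offered a scale for these differences. Of the 402 higher probe sets, 209 (52.0%) lay above all 9 normal pools after ligation, against 10.3% of all kept probe sets, and of the 446 lower ones 269 (60.3%) lay below all 9, against 13.8%. Part of this follows from how the probe sets were chosen, since the control is 1 of the 9. With the other 8 pools alone the counts were again 209 and 269, against 11.6% and 14.9% of all. These 2 counts could not change, because every counted probe set lay beyond the control by the 2-fold rule. Leaving out the control therefore does not remove the effect of the choice. The remaining counted probe sets reached levels that some normal ventricle between E4 and E10 also showed. Among the higher probe sets, 337 of 402 (83.8%) were higher in the normal right ventricle on day 6 than on day 10, against 54.4% of all kept ones, and their median change from day 6 to day 10 was -1.08. Among the lower ones, 369 of 446 rose from day 6 to day 10, against 45.6% of all kept ones. Their median change was 0.81, against -0.04 over all kept probe sets. Across the 20335 probe sets, the ligated minus normal difference and the right ventricle's change from day 6 to day 10 had a Pearson correlation of -0.44. The 4 pools of these 2 differences are distinct, but all share the array, its probe sequences and the processing, and probe sets are not independent.

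The same comparison in the left ventricle was weaker, with a correlation of -0.17 between the right ventricle's response and the left ventricle's change from day 6 to day 10, and medians of -0.39 and 0.34. The difference between single-ventricle pools and the pool of both ventricles at the one age, day 6, where both kinds exist correlated with the response at 0.26, with medians of 0.26 for the higher and -0.42 for the lower probe sets. The difference after conotruncal banding on day 5 correlated at 0.12, with medians of 0.03 and -0.03. In the normal right E6 pool the higher probe sets had a median of 0.56 above, and the lower ones of 0.48 below, the mean of the 8 normal pools other than the control. In the right E10 pool these medians were -0.40 and 0.26. The medians of the higher probe sets were 0.04 in the left E6 pool and -0.02 in the E6 pool of joined ventricles. Those of the lower probe sets were -0.27 and 0.16. The right minus left difference at day 6 correlated with the response at 0.25, with medians of 0.44 and -0.21. For the higher probe sets the day 6 level thus stood out in the right E6 pool and not in the left or the joined E6 pool. The right side at day 6 and that 1 pool, including its dissection, cannot be told apart.

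**Figure D5:**
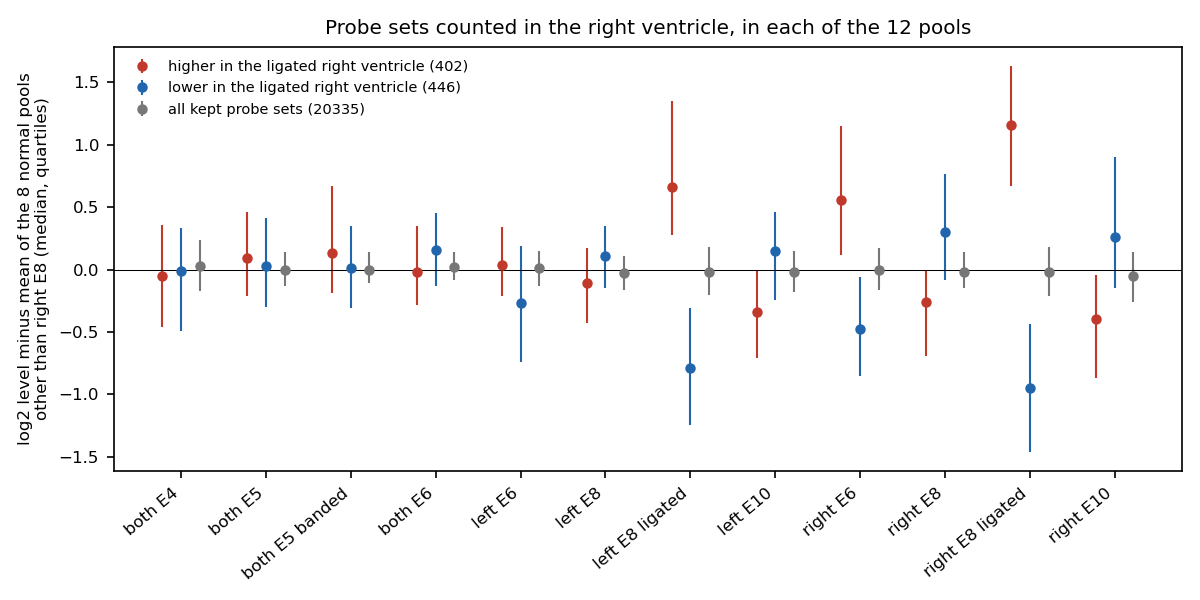
Level in each of the 12 pools, as the log2 difference from the mean of the 8 normal pools other than right E8, for the probe sets higher (402, red) or lower (446, blue) in the ligated right ventricle and for all 20335 kept probe sets (grey); points are medians over probe sets and bars run from the lower to the upper quartile. The values of the right E8 pools follow from how the probe sets were chosen; among the other pools the ligated left ventricle (0.66 and -0.79) and the normal right E6 pool (0.56 and -0.48) lie furthest apart.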

How the data were processed

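Biotin-labelled cRNA was measured on a one-colour chicken oligonucleotide array. The authors deposited 1 table of log2 values, 24 arrays by 38535 probe sets, between 0.14 and 16.09; the log2 scale was read from that range. The submitters' processing notes name GCRMA and MAS5; their versions, and which made the table, are not stated in the sources used here. Background correction of the GCRMA kind sets a floor under low signals, which affects the size of differences from dim probe sets. No depth applies to arrays, and their number limits the precision.

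Values were used as deposited. The 96 controls were left out. Probe sets were kept whose highest pool mean was at least 4.095, the 50th percentile of all non-control values. The 2 technical arrays of a pool were averaged (n = 1 per condition). Array numbers did not pair the samples (correlation of deviations -0.0145). Probe sets were named through GEO's platform annotation, updated by gene ID to RefSeq GRCg7b: 27168 had 1 symbol, 177 several and 11094 none, and 26853 matched RefSeq. Those with several were not named.

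Pools were compared by the 2-fold rule, which has no p-value. limma 3.58.1 in R 4.3.3 (two-sided, adjusted over all kept probe sets) fitted all 12 pools with a term for each stage and treatment, side, and side by ligation, leaving 3 residual degrees of freedom; its p-values do not measure variation between pools of a condition. The fits and the rule were tested on simulated data. Other steps used Python 3.11.15 with numpy 2.4.6 and pandas 2.3.3.

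The members and lists were chosen with earlier results of these data known. Genes named were the 15 widest rises and the 15 widest falls, each gene taken at its brightest counted probe set, members of the 29 lists, and the 5 widest differences between ventricles each way; the genes called by limma, the chemokine, SERPINB and other families, and further probe sets of the named genes were added after their values were seen. Alternatives covered the filter, scaling, a floor, single arrays, the fold, the pools in the fit and limma settings.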

Additional observations from a re-analysis of the deposited data

Results flagged for a closer look

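The ligated minus normal difference differed between the ventricles for 2 genes by limma's term for side by ligation. The right response exceeded the left by 4.59 for AVD (adjusted p = 0.019) and by 3.86 for IL8L2 (limma adjusted p = 0.024), and in both genes the 2 ligated right arrays lay above every other E8 array. The limma term called neither when the E6 or the E10 pools were left out (0 calls each), and IL8L2 passed the filter only through the ligated right pool. AVD passed it only through that pool and the banded E5 pool.

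For 7 probe sets the arrays moved in opposite directions in the ventricles, each at least 2-fold. Lower in the ligated right and higher in the ligated left ventricle were GKN2 (right minus left -2.53), a secreted gastrokine, OSTN (-3.45), the muscle and bone peptide osteocrin, VEGFD (-2.66), a growth factor of lymphatic vessels, and APCDD1L (-2.16). OSTN, for example, gave 6.86 and 6.75 against 8.45 and 8.54 in the right and 10.39 and 10.24 against 8.47 and 8.65 in the left ventricle. Higher in the right and lower in the left were S100A12 (2.53), a calcium-binding protein of granulocytes in mammals, LOC107052719 (5.65) and RBMXL3 (2.20). LOC107052719 gave 10.26 on both ligated right arrays and 3.95 and 3.81 on the ligated left ones, and its normal pools ran from 3.63 to 9.28. These 7 were flagged on the pool differences, which have no test of their own at 1 pool per condition, and the limma term gave an adjusted p of 1.0 for each.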

How the results depend on the processing

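The count of 848 was 359 with a filter at the 70th percentile, 2491 at 1.5-fold and 98 at 4-fold, and it lay between 944 and 984 on single arrays, with 380 higher and 604 lower without the first and 516 higher and 428 lower without the second. With the array number as a replicate block it was 594 (294 higher, 300 lower), and under the other 5 settings 715 to 882. The 363 probe sets counted the same way in both ventricles became 183 at the 70th percentile. The 478 beyond all normal pools became 221 at the 70th percentile and 577 without the normal E6 pools. The 7 limma calls for the right ventricle became 0 at the 70th percentile (805 at an unadjusted p under 0.05), 0 without the E6 pools (2742), 0 without the E10 pools (971), 2 with one ligation term for both ventricles, and 6 to 8 on single arrays. The 2 calls for the difference between ventricles became 0 at the 70th percentile (123), 1 to 2 on single arrays and, under settings chosen after seeing the data, 0 without the E6 pools (874), 0 without the E10 pools (356) and 1 with an intensity trend. The fits without the E6 and without the E10 pools had 1 and 2 residual degrees of freedom, against 3 in the main fit. The 31 counted list genes became 31 to 36. None of 152 values of the named probe sets reversed, and 28 moved by more than the SD of the arrays. On single arrays no value could reverse, because the arrays of the 2 pools did not overlap at these probe sets. The scalings moved a value by at most 0.08, so the lack of reversals is no support. The largest move among all 152 was 0.65. The median ligated minus normal difference of all kept probe sets was 0.001 as deposited. It was 0.013 with quantile normalization and -0.027 with median centring. The limits are 1 pool per condition, no sham-operated pool, a floor that sets the size of differences in dim transcripts, and limma calls that rest on probe sets at that floor.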

Other observations

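Some gene families outside the lists were also counted, and they were looked at after their values were seen. Among keratins, the intermediate filament proteins of epithelia, KRT14 was higher by 1.91 and KRT24 at all 3 of its probe sets, by 1.0 to 1.18, so that 4 of 8 kept keratin probe sets were higher, against 1.98% of all, and none was lower. All 4 lay inside the range of the normal pools, such as 7.73 for KRT14 in a range of 4.79 to 7.81. HOXA3, a homeobox gene of anterior body position, was higher by 2.17 in the right ventricle at a level of 6.26, and HOXA6 by 1.06 near the floor. Both were also higher in the ligated left ventricle, by 1.96 and 1.93, and the banded E5 pool gave 6.79 and 4.95. HOXB1 and both probe sets of HOXB3 were within 1.5-fold in the right ventricle. Of 49 kept probe sets for semaphorins and plexins, guidance proteins of axons, vessels and neural crest cells, 4 were lower, against 2.19% of all, and none was higher. The 4 belonged to SEMA6A, which had 2, SEMA6D and PLXNA4. None of 22 probe sets for dual-specificity phosphatases, which switch off MAP kinases, was counted.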
